A study of Mus musculus with 2 samples.

Results

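The genes that load, carry and display peptides on major histocompatibility complex (MHC) molecules were followed in injured mouse kidneys that differed in the dose of *Inmt*, the gene of indolethylamine N-methyltransferase. Members were chosen by symbol, namely every gene whose symbol begins with H2- together with *B2m*, *Tap1*, *Tap2*, *Tapbp*, *Tapbpl*, *Cd74*, *Ciita*, *Nlrc5*, *Erap1*, *Psmb8*, *Psmb9* and *Psmb10*. The rule found 36 of the 19829 genes in the table. They comprised 16 class I genes, 8 class II genes, 9 processing genes of the class I pathway, 2 transactivators and 1 gene, *H2-Ke6*, that is named for its place in the region and encodes a steroid dehydrogenase (*Hsd17b8*), not an MHC molecule. *H2-L*, *H2-Ea*, *H2-Eb2*, *H2-Oa*, *H2-Pa* and *H2-Pb* had no row and were not analysed here.

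RNA came from kidneys of a wild-type group, WT+AKI, and of an *Inmt* transgenic group, TG+AKI, with 1 library each. The study writes the former as I/R+WT+Voc and uses I/R+Tg+Voc for the latter. Per the methods, both were C57BL/6 males aged 14 weeks. Both had received voclosporin, a calcineurin inhibitor that blocks T cell activation, at 30 mg/kg by daily intraperitoneal injection for 2 weeks from 8 to 10 weeks of age. Both then underwent bilateral renal ischemia for 30 min and, per the methods, were killed 48 h later, although a shorter interval is stated elsewhere for these groups and a longer course of the drug elsewhere for the model. The labels list no treatment for either sample although the series design speaks of voclosporin, and the title of the transgenic sample also calls it a conditional knockout. The transgene acts in proximal tubules. Its promoter, and the number of mice behind each library, were not given in the sources used here. The comparison addressed how kidney transcripts differed between the genotypes after the same drug and injury.

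MHC class I molecules pair a heavy chain with beta-2-microglobulin and show peptides from inside the cell to CD8 T cells. Proteasomes cut those peptides, the TAP1-TAP2 pump brings them into the endoplasmic reticulum, tapasin helps to load them, and the aminopeptidase ERAP1 trims them. MHC class II molecules are made mainly by dendritic cells, B cells and macrophages, and, in injured kidneys, also by some tubular and endothelial cells. They travel with the invariant chain (*Cd74*), receive peptides with the help of H2-DM, and are read by CD4 T cells. NLRC5 is known as the transactivator of class I genes and CIITA as that of class II genes, and interferon gamma raises both programs.

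Reads recovered over the 19829 genes summed to 38542764 for WT+AKI and 36427421 for TG+AKI. A deposited normalized value of 1 equalled 42.4 reads of the former and 33.1 reads of the latter. *Inmt* served as the check of the labels and had a value of 10.4 in WT+AKI (443 reads) versus 402.8 in TG+AKI (13339 reads), a ratio of 38.5 [35.1 to 42.5]. Ratios are TG+AKI over WT+AKI throughout. Brackets hold 95% exact (Clopper-Pearson) intervals from the reads of the 2 libraries, which cover counting error only, since reads without molecular identifiers are not independent molecules. The groups have 1 library each, so differences could not be set against the spread between mice, and no p-value for the conditions was computed. A gene was said to rise or fall when it differed at least 2-fold on the log2(value + 0.1) scale, a scale that understates the change of low genes. Of the 36 members, 33 had a mean value of at least 1 and were counted, whereas *H2-Q2*, *H2-Q10* and *H2-Ob* were below it.

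The class II sum was higher in TG+AKI and the classical class I and processing sums were lower, while the other class I genes had no common direction. The summed value of the 8 class II genes went from 103 in WT+AKI to 166 in TG+AKI, a ratio of 1.61 [1.55 to 1.67]. The summed value of the 16 class I genes went from 701 to 489, a ratio of 0.698 [0.685 to 0.712]. *H2-K1* and *H2-D1* carried this difference, since the 2 summed to 491 and 280.4, a ratio of 0.571 [0.558 to 0.586], and the other 14 to 210.3 and 209, a ratio of 0.994 [0.963 to 1.03]. The summed value of the 9 processing genes went from 581 to 346, a ratio of 0.595 [0.582 to 0.609]. Of all reads on these 3 classes, class II took 7.45% in WT+AKI [7.24 to 7.67] and 16.6% in TG+AKI [16.2 to 17], intervals that did not overlap.

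At the deposited scaling, few members passed the 2-fold rule. *H2-Aa* alone rose, 1 of 33 members, against 6.46% of the 14543 genes tested, and *Tap1* and *Psmb10* fell, 2 of 33 members, against 9.78% of those genes. In either direction 3 of 33 members were called, against 16.2% of all genes. All 9 processing genes had a ratio below 1, against 51.1% of all genes tested, while the class I genes and the class II genes each lay on both sides of 1. Of the 14 class I genes tested, 8 had a ratio below 1 (57.1%) and 6 above it, close to the share over all genes. The median log2 fold change of these 14 genes was −0.48, and it turned to 0.081 with a value filter of 10. The median was 0.70 over the 7 class II genes, −0.74 over the 9 processing genes and −0.01 over all genes. At 1.5-fold, a rule added after the data were seen, 7 of the 9 processing genes and 7 of the 14 class I genes were lower, against 18.3% of all genes, while 4 of the 7 class II genes were higher, against 14.8%. The interval of the ratio lay below 1 for 9 of 9 processing genes and 7 of 14 class I genes, against 38.5% of all genes. It lay above 1 for 4 of 7 class II genes, against 36.4%. An exact conditional binomial test on reads, which compares the 2 libraries and not the conditions, had a Benjamini-Hochberg adjusted p under 0.05 for 26 of the 33 members, against 73.6% of all genes.

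Several members lay close to the threshold. *H2-Aa*, with a log2 fold change of 1.07, lay just inside it, and *H2-Eb1* (0.92), *H2-M3* (−0.95), *H2-Q4* (−0.93) and *Tap2* (−0.92) lay just outside it. Scaling both libraries to equal totals lowered the log2 ratio of every gene by 0.27, and setting the median ratio of well-expressed genes to 1 lowered it by 0.14, with smaller shifts for the lowest genes once 0.1 is added. *H2-Aa* then missed the threshold, at 0.79 and 0.92. With equal totals, 6 class I genes, 5 processing genes and 1 class II gene were 2-fold lower, against 14.5% of all genes. They included *H2-K1*, *H2-D1* and *B2m*. With a median ratio of 1, 4 class I genes and 3 processing genes were 2-fold lower, against 12.0% of all genes. Of the 36 members, 32 kept their direction under equal totals, a median ratio of 1 and DESeq2 scaling, the last a shift of only 0.016. The alternative pseudocounts and TMM scaling, which the deposited values already matched, could not change a direction.

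**Figure D1:**
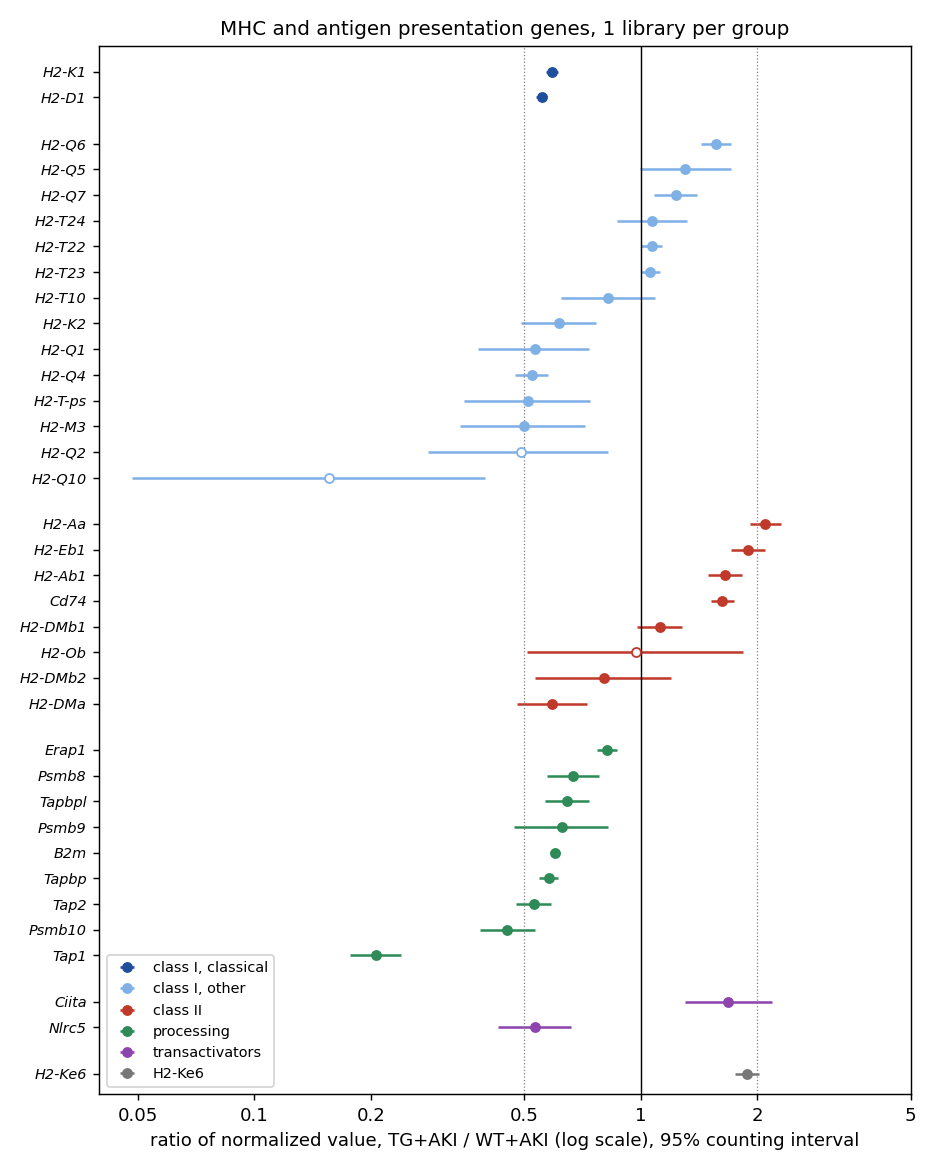
The ratio of the normalized value in TG+AKI to that in WT+AKI is plotted on a log scale for each of the 36 members, grouped by class, with lines for the 95% counting interval, dotted lines at 2-fold and open points for the 3 genes below the value filter. All 9 processing genes lie left of 1, from 0.206 (*Tap1*) to 0.818 (*Erap1*), while *H2-Aa*, *H2-Eb1*, *H2-Ab1* and *Cd74* lie between 1.63 and 2.10, and *H2-T22*, *H2-T23* and *H2-T24*, near 1, pass below 1 under other scalings.

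The classical class I heavy chains and their light chain were lower together in TG+AKI. *H2-K1* (gene ID 14972, GRCm38 chr17:33996017-34000347, minus strand) had a value of 243 in WT+AKI (10299 reads) versus 143 in TG+AKI (4743 reads), a ratio of 0.590 [0.570 to 0.610]. *H2-D1* (gene ID 14964, GRCm38 chr17:35262730-35267499, plus strand) had a value of 248 in WT+AKI (10506 reads) versus 137 in TG+AKI (4543 reads), a ratio of 0.554 [0.535 to 0.573]. Both lie under the 2-fold threshold at the deposited scaling, with log2 fold changes of −0.76 and −0.85. *B2m*, the shared light chain (gene ID 12010, GRCm38 chr2:122147686-122153083, plus strand), had a value of 323 in WT+AKI (13690 reads) versus 194 in TG+AKI (6409 reads), a ratio of 0.599 [0.582 to 0.617].

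The proportion of heavy to light chain reads therefore moved little. The number of *H2-K1* reads per *B2m* read was 0.752 in WT+AKI versus 0.740 in TG+AKI, a ratio of ratios of 0.984 [0.94 to 1.03], which does not depend on how the libraries were scaled. For *H2-D1* it was 0.767 and 0.709, a ratio of ratios of 0.924 [0.882 to 0.967]. Per kilobase of the longest annotated transcript, *B2m* had the highest level of these genes in WT+AKI (375), followed by *H2-K1* (129.6) and *H2-D1* (118), and the same order held in TG+AKI at 225, 76.4 and 65.3.

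Upstream of their start sites, the class I heavy chain genes carry a well-known block of elements. It comprises an enhancer with a kappaB site and an interferon regulatory factor (IRF) site, then an X2 element and a Y box, which form part of the platform that NLRC5 and CIITA use. Promoter windows from RefSeq (GRCm38.p6, 250 bases before to 50 after the start site) were found for 25 of the 36 members, in 27 of 32851 windows. The motifs, searched on both strands, were GGGNNTTCC for kappaB, TTTCNNTTC for IRF, TGANG for X2 and ATTGG for the Y box. They were written after member promoters had been read. The stretch from kappaB to Y box is shown for the 4 heavy chain genes in which it lies outside annotated untranslated regions, with the 4 elements in capitals and 5′ to 3′ on the strand of the gene. *H2-K1* lies on the minus strand at chr17:34000359-34000458, and the others on the plus strand at chr17:35379444-35379542 (*H2-Q4*), chr17:35424677-35424775 (*H2-Q6*) and chr17:35439022-35439119 (*H2-Q7*).
H2-K1: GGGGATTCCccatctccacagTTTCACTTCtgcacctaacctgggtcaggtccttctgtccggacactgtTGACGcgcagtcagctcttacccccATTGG
H2-Q4: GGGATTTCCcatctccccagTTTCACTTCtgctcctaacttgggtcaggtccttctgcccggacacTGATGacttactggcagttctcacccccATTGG
H2-Q6: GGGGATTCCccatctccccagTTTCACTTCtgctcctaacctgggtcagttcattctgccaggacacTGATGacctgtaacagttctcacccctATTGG
H2-Q7: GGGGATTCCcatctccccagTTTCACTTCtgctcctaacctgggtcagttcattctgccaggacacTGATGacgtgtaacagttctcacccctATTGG
The same elements in the same order were present before the RefSeq start site of *H2-D1*, at chr17:35262923-35263022, a stretch that lies in the untranslated region of a longer GENCODE transcript. A kappaB site followed within 30 bases by an IRF site occurred in 6 member windows, of these 5 genes, which is 22.2% of member windows and 0.0457% of all windows. These are matches of letters and say nothing of binding.

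Genes with this block did not share a direction. *H2-Q4* (a nonclassical class I heavy chain) had a value of 33.4 in WT+AKI (1417 reads) versus 17.5 in TG+AKI (578 reads), a ratio of 0.522 [0.473 to 0.576], close to that of *H2-K1* and *H2-D1*. *H2-Q6* had a value of 20.9 in WT+AKI (884 reads) versus 32.6 in TG+AKI (1079 reads), a ratio of 1.56 [1.43 to 1.71]. *H2-Q7*, which encodes the Qa-2 antigen, had a value of 12.1 (513 reads) and 14.9 (493 reads), a ratio of 1.23 [1.09 to 1.39]. The summed reads of *H2-Q6* and *H2-Q7* per *H2-Q4* read were 2.76 times as high in TG+AKI [2.44 to 3.12]. *H2-Q6* and *H2-Q7* share 10.8% and 13.5% of their 100-base words with other genes, mainly with each other or with *H2-Q10*, so reads may have been split between them, and 19.1% of the exon bases of *H2-Q4* overlap an antisense gene on the opposite strand. Whether the counting used the strand was not given in the sources used here.

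The remaining class I genes comprised a lower set and a set close to 1. *H2-M3*, which presents formylated bacterial peptides, had a value of 2.55 (108 reads) in WT+AKI versus 1.27 (42 reads) in TG+AKI, a ratio of 0.498 [0.340 to 0.717]. *H2-Q1* (3.07 and 1.63) and the pseudogenes *H2-T-ps* (2.48 and 1.27) and *H2-K2* (5.85 and 3.59) were lower by similar ratios, 0.532, 0.512 and 0.614, each with an interval below 1. *H2-Q2* (1.30 and 0.634) and *H2-Q10* (0.967 and 0.151), the latter a secreted class I protein known from liver, were below the filter and rested on 21 and 5 reads in TG+AKI. *H2-Q10* had 41 reads in WT+AKI, and its ratio was 0.156 [0.0482 to 0.395].

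The T region genes *H2-T22* and *H2-T23* stood at nearly equal values in both libraries. *H2-T23*, which encodes Qa-1, the mouse counterpart of HLA-E and a ligand of NK cell receptors, had a value of 64.4 in WT+AKI (2729 reads) versus 68.1 in TG+AKI (2255 reads), a ratio of 1.06 [1.0 to 1.12]. *H2-T22*, a ligand of some gamma-delta T cell receptors, had a value of 52.8 (2238 reads) and 56.3 (1865 reads), a ratio of 1.07 [1.0 to 1.13], and 29.4% of its exon bases overlap a gene on the opposite strand. *H2-T24* (4.91 and 5.25) had a ratio of 1.07 [0.871 to 1.32], and the direction of all 3 turned when the libraries were scaled to equal totals or to a median ratio of 1. Free of that scaling, the reads of *H2-T22* and *H2-T23* per read of *H2-K1* and *H2-D1* were 0.239 in WT+AKI versus 0.444 in TG+AKI, a ratio of ratios of 1.86 [1.77 to 1.95]. *H2-T10* (3.11 and 2.57) and *H2-Q5* (2.59 and 3.38) had ratios of 0.824 and 1.30 with intervals that include 1. A gene on the opposite strand overlaps 27.1% of the exon bases of *H2-T10*.

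**Figure D2:**
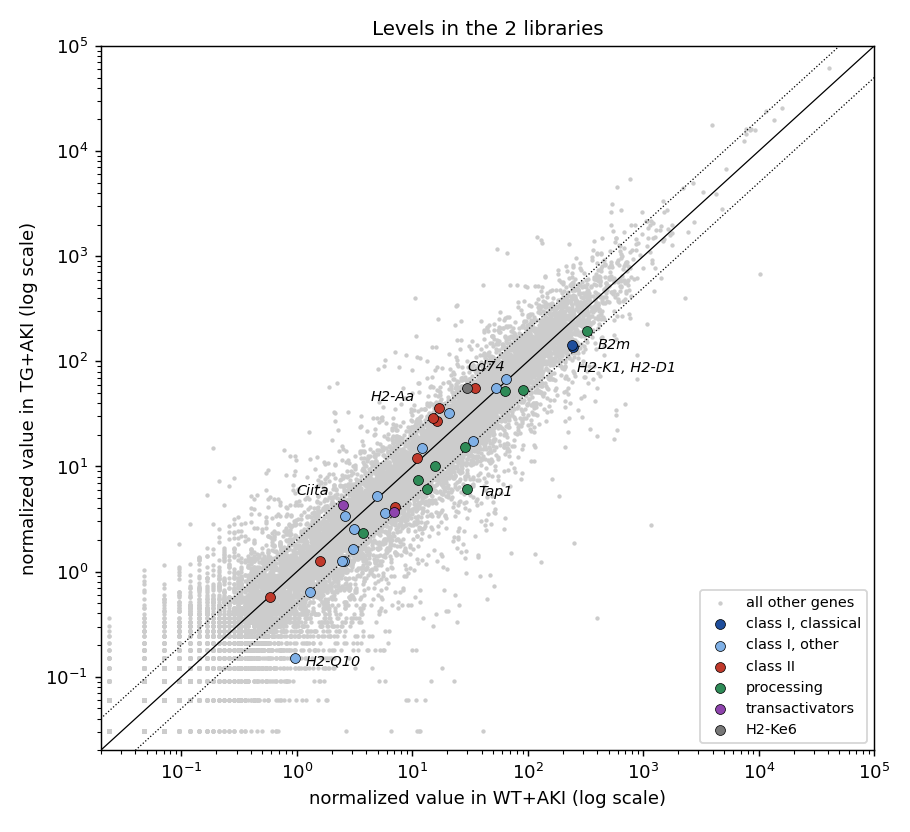
Each gene's normalized value in WT+AKI is plotted against that in TG+AKI on log axes, with all other genes in grey, members colored by class, a solid line at equal values and dotted lines at 2-fold. *B2m*, *H2-K1* and *H2-D1* have the highest normalized values of the members in both libraries, on a scale not divided by length, and lie below the line, *Tap1* lies farthest below it among the members tested, and the class II genes *H2-Aa* and *Cd74* lie above it.

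All 9 processing genes were lower in TG+AKI, with *Tap1* far beyond the rest. *Tap1*, a subunit of the peptide pump (gene ID 21354, GRCm38 chr17:34187553-34197225, plus strand), had a value of 29.8 in WT+AKI (1265 reads) versus 6.16 in TG+AKI (204 reads). It fell 4.84-fold [4.17 to 5.64], with a log2 fold change of −2.26, and 335 of the 14543 genes tested, *Tap1* included, had a change as low or lower. Its partner subunit *Tap2* had a value of 28.8 (1220 reads) and 15.2 (503 reads), a ratio of 0.528 [0.475 to 0.586]. The number of *Tap1* reads per *Tap2* read was 1.04 in WT+AKI versus 0.406 in TG+AKI, a ratio of ratios of 0.391 [0.325 to 0.470], so the proportion of the subunits differed between the libraries. Of the exon bases of *Tap2*, 14.1% and 4.36% overlap *Gm15821* and *Gm20496* on the opposite strand.

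*Tap1* shares its upstream region with *Psmb9*. Their RefSeq start sites lie 226 bases apart on opposite strands, at positions 34187556 and 34187330 of chromosome 17. *Psmb9*, a catalytic subunit of the immunoproteasome, had a value of 3.73 in WT+AKI (158 reads) versus 2.33 in TG+AKI (77 reads), a ratio of 0.624 [0.469 to 0.824]. The number of *Tap1* reads per *Psmb9* read went from 8.01 to 2.65, a ratio of ratios of 0.331 [0.240 to 0.458], so the neighbours differed by unequal factors. Their annotated exons overlap by 212 bases, 3.87% of those of *Tap1* and 5.79% of those of *Psmb9*.

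The other loading genes differed less. Tapasin (*Tapbp*), which bridges TAP and the class I heavy chain, had a value of 91.6 in WT+AKI (3882 reads) versus 52.8 in TG+AKI (1750 reads), a ratio of 0.577 [0.545 to 0.611]. Its relative *Tapbpl*, a peptide editor, had a value of 15.6 (663 reads) and 10.1 (334 reads), a ratio of 0.645 [0.564 to 0.737]. *Erap1* had the ratio nearest to 1 of the 9 genes, 0.818 [0.769 to 0.869], with values of 63.6 and 52.0. An opposite-strand gene overlaps 24.9% of the exon bases of *Tapbp*, and another overlaps 11.5% of those of *Erap1*.

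The immunoproteasome subunits were lower by a larger factor than the subunits they replace in ordinary proteasomes. *Psmb10* fell 2.22-fold [1.88 to 2.61], from 13.4 (570 reads) to 6.07 (201 reads), and *Psmb8* had a value of 11.1 (471 reads) and 7.43 (246 reads), a ratio of 0.669 [0.571 to 0.782]. *Gm20496* on the opposite strand overlaps 14.7% of the exon bases of *Psmb8*. The 3 subunits *Psmb8*, *Psmb9* and *Psmb10* summed to 28.3 in WT+AKI versus 15.8 in TG+AKI, a ratio of 0.559 [0.504 to 0.620]. Their constitutive counterparts *Psmb5*, *Psmb6* and *Psmb7* summed to 299 and 272, a ratio of 0.912 [0.887 to 0.937]. There were 0.0947 immunoproteasome reads per constitutive read in WT+AKI versus 0.0581 in TG+AKI, a ratio of ratios of 0.614 [0.551 to 0.683].

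Each replacement pair showed a ratio below 1, by unequal amounts. The ratio of ratios was 0.768 [0.651 to 0.905] for *Psmb8* over *Psmb5*, 0.708 [0.529 to 0.94] for *Psmb9* over *Psmb6* and 0.461 [0.388 to 0.546] for *Psmb10* over *Psmb7*. Of the 6 genes in the list of constitutive subunits and the PA28 activator, none passed the 2-fold rule in either direction, against 16.2% of all genes. The median log2 fold change of the list was −0.19. *Psme1* and *Psme2*, the interferon-responsive PA28 subunits, had ratios of 0.690 [0.642 to 0.741] and 0.624 [0.576 to 0.676], while *Psme3*, the nuclear PA28 subunit, had a ratio of 0.948 [0.908 to 0.990].

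The general folding machinery of the endoplasmic reticulum, which class I chains share with many other proteins, did not follow the processing genes, with ratios from 0.932 to 1.69. None of its 6 listed genes passed the 2-fold rule, against 16.2% of all genes, and their median log2 fold change was 0.10. Calreticulin (*Calr*) had values of 547 and 612, a ratio of 1.12, and the disulfide isomerase *Pdia3* had values of 485 and 477, a ratio of 0.983. The chaperone *Hspa5* had values of 429 and 727, a ratio of 1.69 [1.66 to 1.72].

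The 3 class II chains were higher in TG+AKI, and *H2-Aa* by more than *H2-Ab1*. *H2-Aa*, the alpha chain of I-A (gene ID 14960, GRCm38 chr17:34282744-34287823, minus strand), had a value of 17.1 in WT+AKI (725 reads) versus 35.9 in TG+AKI (1189 reads), a 2.10-fold rise [1.91 to 2.31]. *H2-Ab1*, its beta chain (gene ID 14961, GRCm38 chr17:34257689-34269419, plus strand), had a value of 16.4 (694 reads) and 27.1 (897 reads), a ratio of 1.65 [1.5 to 1.83]. *H2-Eb1*, the beta chain of I-E (gene ID 14969, GRCm38 chr17:34305867-34316674, plus strand), had a value of 15.1 (642 reads) and 28.7 (952 reads), a ratio of 1.9 [1.72 to 2.10]. C57BL/6 mice are known to lack a working I-E alpha chain, so *H2-Eb1* transcript is present there without the I-E pair. *Cd74*, the invariant chain (gene ID 16149), had a value of 34.6 (1466 reads) and 56.3 (1863 reads), a ratio of 1.63 [1.52 to 1.74].

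These 4 genes had log2 fold changes from 0.70 to 1.07 and were not higher by 1 common factor. *H2-Aa* over *H2-Ab1* gave a ratio of ratios of 1.27 [1.11 to 1.46], and *H2-Aa* over *H2-Eb1* gave 1.11 [0.963 to 1.27], an interval that includes 1. The reads of the 3 chains per *Cd74* read were 1.41 in WT+AKI versus 1.63 in TG+AKI, a ratio of ratios of 1.16 [1.06 to 1.27]. Per kilobase of transcript, *Cd74* had the highest level of the class II genes in both libraries, at 24.5 in WT+AKI versus 39.9 in TG+AKI, and *H2-Ab1* followed at 13.5 and 22.3.

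The H2-DM and H2-O genes, which govern peptide loading of class II, did not follow the chains. *H2-DMa* had a value of 7.01 in WT+AKI (297 reads) versus 4.14 in TG+AKI (137 reads), a ratio of 0.591 [0.479 to 0.725], the opposite direction. *H2-DMb1* had values of 10.9 and 12.2, a ratio of 1.12 [0.977 to 1.28] that passed below 1 with equal totals, and *H2-DMb2* had values of 1.58 and 1.27, a ratio of 0.803 [0.532 to 1.20]. *H2-DMb1* and *H2-DMb2* share 13.7% and 12.9% of their 100-base words with each other, and 10.4% of the exon bases of *H2-DMa* overlap *Brd2* on the opposite strand. Chain reads per H2-DM read were 2.50 in WT+AKI versus 5.22 in TG+AKI, a ratio of ratios of 2.09 [1.85 to 2.36]. *H2-Ob*, a modulator of H2-DM known from B cells, stood at 25 and 19 reads, a ratio of 0.973 [0.507 to 1.84], so no difference was detectable at this depth.

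The X2 and Y elements are shown for *H2-Aa*, *H2-Eb1*, *H2-DMb2* and *H2-Ob* of class II. For comparison they are shown for *B2m* and *H2-M3*, since genes of both directions carry them. *H2-Ab1* and *Cd74* had no promoter window. An X2 element, a gap of 15 to 25 bases and a Y box were found in 13 of the 27 member windows (48.1%), of 12 genes, and in 2.79% of all 32851 windows. Since the motifs were written after member promoters had been read, these shares are no test of the members. The arrangement occurred in 5 of the 6 class II genes with a window, in 6 of the 11 class I genes and in 1 of the 7 processing genes. In the lines that follow the X2 and Y elements are in capitals. *H2-Aa* is on the minus strand at chr17:34287867-34287897, and the plus-strand stretches lie at chr17:34305781-34305812 (*H2-Eb1*), chr17:34145134-34145163 (*H2-DMb2*), chr17:34238826-34238852 (*H2-Ob*), chr2:122147609-122147638 (*B2m*) and chr17:37270185-37270217 (*H2-M3*).
H2-Aa: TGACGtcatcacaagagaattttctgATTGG
H2-Eb1: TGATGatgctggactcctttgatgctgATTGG
H2-DMb2: TGATGctaggctaagtcacttagtgATTGG
H2-Ob: TGATGcaaagtcttcgctcttgATTGG
B2m: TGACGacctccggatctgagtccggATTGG
H2-M3: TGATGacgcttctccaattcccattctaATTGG
The gap between X2 and Y was 17 bases in *H2-Ob*, 20 to 22 bases in *H2-DMb2*, *B2m*, *H2-Aa* and *H2-Eb1*, and 23 bases in *H2-M3*. It was also 23 bases in *H2-DMb1*, whose stretch lies in an annotated untranslated region and is not printed. *H2-Aa* and *H2-Eb1*, which were higher, and *B2m* and *H2-M3*, which were lower, thus share this arrangement.

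The class II chains were higher in a library in which leukocyte and macrophage markers were mostly lower. In a whole organ, fewer cells of a type and less RNA per cell cannot be told apart. The 5 leukocyte markers summed to 58.0 in WT+AKI versus 24.3 in TG+AKI, a ratio of 0.418 [0.386 to 0.453]. Of the 5 markers, 4 fell, against 9.78% of all genes. *Ptprc*, the common leukocyte antigen CD45, had values of 13.7 and 7.28, a ratio of 0.530 [0.454 to 0.617], and *Cd52* fell from 9.25 to 2.54.

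Of the 11 macrophage markers, 10 were tested and 7 fell, against 9.78% of all genes. The 11 summed to 202 in WT+AKI versus 89.2 in TG+AKI, a ratio of 0.441 [0.423 to 0.460]. The single ratios ran from 0.0375 (*Cd68*) to 1.6. *Adgre1*, which encodes the F4/80 antigen, fell from 10.9 to 4.14. *Csf1r*, the receptor that macrophages need to survive, did not follow, with values of 37.5 and 43.0 and a ratio of 1.15 [1.07 to 1.23], and the mannose receptor *Mrc1* had values of 2.67 and 4.26, a ratio of 1.6 [1.24 to 2.06]. The list thus held members on both sides of 1.

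The dendritic cell markers were split, and most rested on few reads. *Itgax* fell from 5.14 (218 reads) to 1.78 (59 reads), and *Zbtb46* had values of 15.8 and 14.2, a ratio of 0.897 [0.796 to 1.01]. Of the 8 markers, 6 were below the filter. Of these, *Flt3* had 14 and 41 reads, a ratio of 3.75 [2.0 to 7.45], *Cd209a* had 23 and 41 reads, *Clec9a* had 8 and 18 reads and *Xcr1* had 5 and 12 reads. *Ccr7* had 5 and 9 reads, while *Batf3* had 14 and 9 reads, a ratio of 0.823 [0.314 to 2.04]. The 6 B cell markers listed were all below the filter and summed to 76 and 90 reads, a ratio of 1.52 [1.10 to 2.09]. The 6 endothelial markers summed to 388 and 403, a ratio of 1.04 [1.02 to 1.06]. Their single ratios lay on both sides of 1, from 0.731 [0.691 to 0.773] for *Pecam1* to 1.65 [1.56 to 1.74] for *Kdr*. Every gene with a row had reads in both libraries, so no row could show a marker at 0 reads. *Blk*, *Cd3d*, *Ly6g* and *Retnlg* were listed as markers but had no row. The part of the listed markers in the class II result was not tested.

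Set against these markers, the class II chains gave different answers by comparator. The ratio of ratios of chain reads was 1.64 [1.5 to 1.80] against *Csf1r*, 3.56 [3.03 to 4.20] against *Ptprc*, 4.51 [4.09 to 4.98] against the leukocyte sum and 4.27 [3.98 to 4.59] against the macrophage sum. Against dendritic cell markers it was 2.14 [1.91 to 2.40] for their sum, 5.45 [4.04 to 7.43] for *Itgax* and 2.10 [1.84 to 2.40] for *Zbtb46*, but 0.503 [0.253 to 0.946] for *Flt3*, so the chains were lower per *Flt3* read. Against *Clec9a* and *Cd209a* it was 0.655 [0.246 to 1.59] and 0.827 [0.472 to 1.42], with intervals that include 1. *Ctss*, the lysosomal protease that cuts the invariant chain in antigen-presenting cells, fell from 28.9 (1225 reads) to 10.4 (344 reads). Of the 7 listed endosomal processing genes, *Ctss* and *Ctsd* fell, against 9.78% of all genes, and none rose, against 6.46%. Their median log2 fold change was −0.51. *Ctsl*, which does the work of *Ctss* in thymic epithelium, had a ratio of 0.821, and the asparaginyl protease *Lgmn* a ratio of 1.12. The reductase *Ifi30*, which opens disulfide bonds of antigens, had values of 55.9 and 39.0 and a ratio of 0.697.

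**Figure D3:**
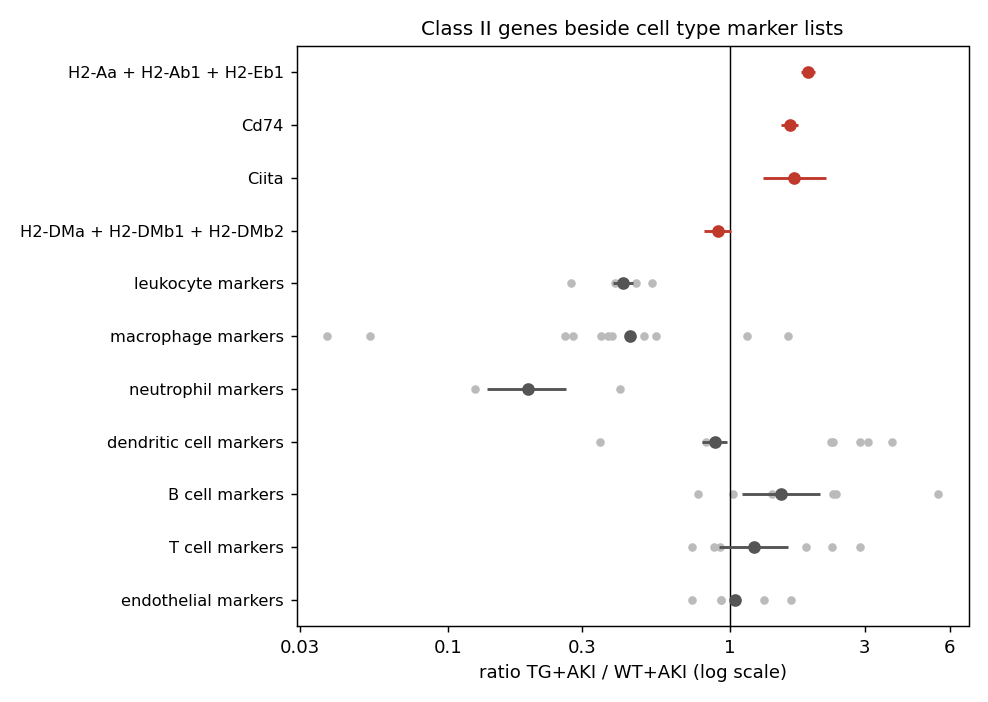
Ratios of TG+AKI to WT+AKI are plotted on a log scale for class II genes (red) and for summed marker lists (dark grey), with 95% counting intervals as lines and single markers as light points. The class II chains, *Cd74* and *Ciita* lie between 1.63 and 1.89, the leukocyte, macrophage and neutrophil sums lie at 0.418, 0.441 and 0.192, and the H2-DM sum at 0.903, whose interval includes 1.

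The labelled tissue was kidney, and tubular markers were high in both libraries. The 7 proximal tubule markers summed to 4542 in WT+AKI versus 15469 in TG+AKI. All 7 rose, as did 2 of the 3 thick ascending limb markers, against 6.46% of all genes. The part of these differences in the results on MHC genes was not tested, and with 1 library per group genotype and any other difference between the kidneys cannot be told apart.

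Of the transactivators, *Nlrc5* was lower in TG+AKI, as were *H2-K1* and *H2-D1*. *Ciita* was higher, as were the class II chains and *Cd74*. The other class I genes and the H2-DM genes had no common direction. *Nlrc5* had a value of 6.93 in WT+AKI (294 reads) versus 3.68 in TG+AKI (122 reads), a ratio of 0.531 [0.427 to 0.658]. *Ciita* had a value of 2.52 in WT+AKI (107 reads) versus 4.26 in TG+AKI (141 reads), a ratio of 1.69 [1.30 to 2.19]. Neither passed the 2-fold rule at the deposited scaling. *Ciita* reads per *Nlrc5* read were 0.364 in WT+AKI versus 1.16 in TG+AKI, a ratio of ratios of 3.18 [2.26 to 4.47]. Nothing here tests whether either acted on the other members.

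Of the 19 listed regulators with a row, which hold interferon and NF-kB signaling genes and the X and Y box factors, 5 fell, against 9.78% of all genes, and none rose. The interval of the ratio lay below 1 for 15 of them, against 38.5% of all genes, and their median log2 fold change was −0.63. The 5 were the interferon gamma receptor chains *Ifngr1* (90.3 and 31.6, ratio 0.349) and *Ifngr2* (57.5 and 23.6, ratio 0.411), the transcription factors *Irf1* (33.2 and 12.2, ratio 0.367) and *Irf9* (30.7 and 12.7, ratio 0.413), and the NF-kB subunit *Rela* (61.0 and 29.1, ratio 0.477). *Ifng* itself had no row and was not analysed here.

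The listed factors of the X and Y boxes were not uniformly lower. Of the X elements, only X2 was searched in the promoters. *Creb1*, a listed regulator named after its values were seen, had values of 44.2 and 48.8, a ratio of 1.11 [1.03 to 1.18]. *Rfx5*, a subunit of the X box complex, had values of 29.3 and 18.9, a ratio of 0.644 [0.584 to 0.710], whereas its partners *Rfxap* and *Rfxank* both had ratios of 1.03 with intervals that include 1. Of the Y box factor subunits, *Nfyc*, named after its values were seen, had values of 38.4 and 61.8, a ratio of 1.61 [1.5 to 1.72], while *Nfya* and *Nfyb* had ratios of 0.717 and 0.780.

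Ratios between the classes, taken from the same reads as the sums above, do not depend on library scaling. They follow from those sums, give relative levels only and cannot show which class was higher or lower. Class II reads per class I read were 0.147 in WT+AKI versus 0.339 in TG+AKI, a ratio of ratios of 2.30 [2.20 to 2.41]. It was 2.82 [2.69 to 2.95] against the classical class I genes and 1.62 [1.54 to 1.70] against the others. Against processing genes the ratio of ratios was 2.7 [2.58 to 2.83]. Processing reads per class I read were 0.828 and 0.706, a ratio of ratios of 0.853 [0.828 to 0.878], so the processing sum was lower relative to the class I sum.

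**Figure D4:**
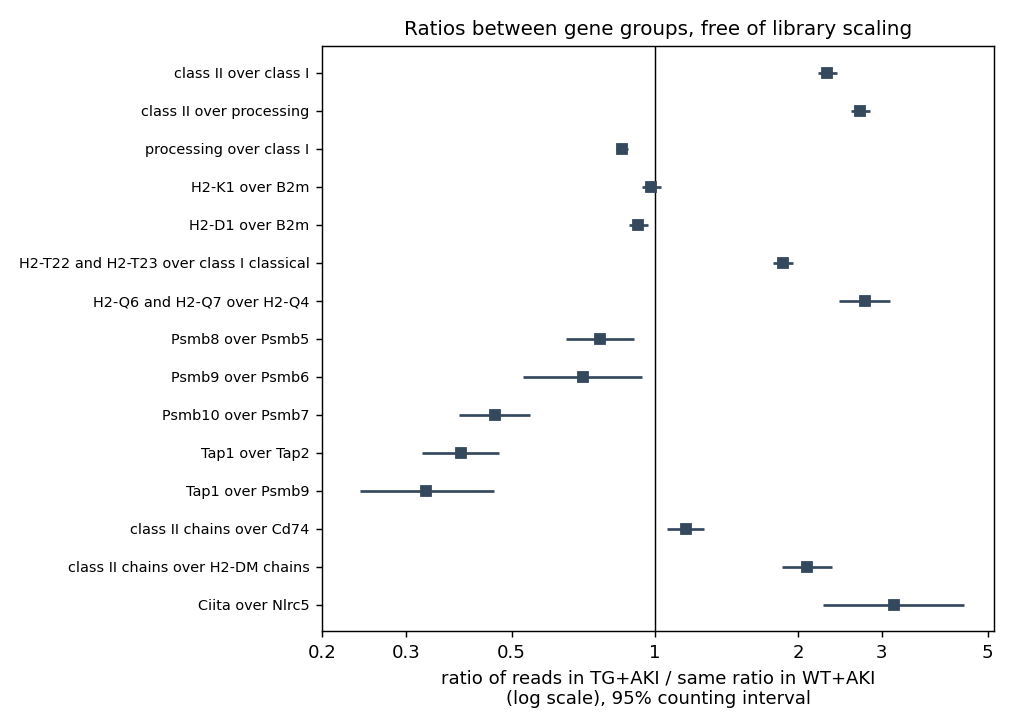
Each square, for 15 selected ratios, is the ratio of reads between 2 genes or gene groups in TG+AKI divided by the same ratio in WT+AKI, on a log scale, with the 95% counting interval as a line. *H2-K1* over *B2m* lies at 0.984 with an interval that includes 1, of the 15 *Tap1* over *Psmb9* lies lowest at 0.331, and *Ciita* over *Nlrc5* highest at 3.18.

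Higher and lower members were not separated by position. Along chromosome 17 the class II chains *H2-Ab1*, *H2-Aa* and *H2-Eb1* lie between *Tap2* and *H2-D1*, both of which were lower. *Psmb9*, *Tap1*, *Psmb8* and *Tap2* lie between *H2-DMb1* and *H2-Ob*. *H2-Ke6*, the next member after *H2-K1*, had values of 29.7 and 56.0, a ratio of 1.89 [1.75 to 2.03], but 92.0% of the 100-base words of its transcript also occur in the readthrough gene *Gm20427*, so its reads cannot be assigned to it with confidence.

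**Figure D5:**
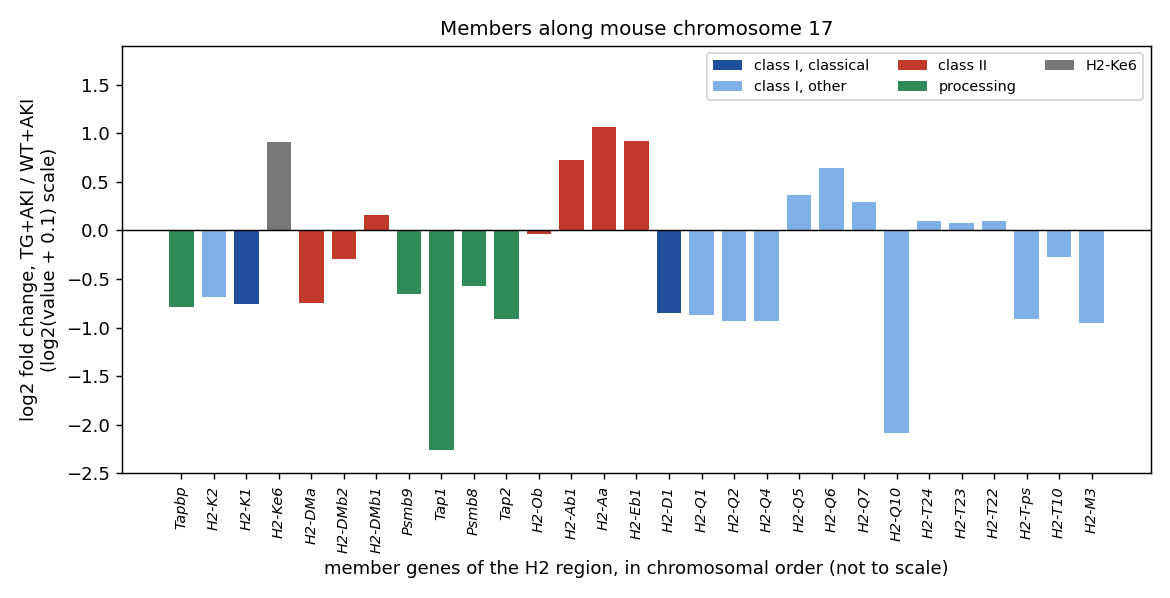
Bars give the log2 fold change of the members on chromosome 17 in their chromosomal order, not to scale, on the log2(value + 0.1) scale. The class II chains stand at 0.72, 1.07 and 0.92 between *H2-Ob* at −0.03 and *H2-D1* at −0.85, *Tap1* reaches −2.26, *H2-Q2*, *H2-Q10* and *H2-Ob* are below the value filter, *H2-T22*, *H2-T23* and *H2-T24* turn below 0 with equal totals or a median ratio of 1, and *H2-DMb1* with equal totals.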

How the data were processed

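Left kidney RNA was sequenced with the TruSeq stranded mRNA kit on a NovaSeq platform. Per the methods and the submitters' processing notes, the authors aligned reads with STAR 2.7.3a (build mm10), counted them with HTSeq and normalized them. The deposited table gives 1 normalized signal value per gene and library, which matched TMM scaling. All values were whole multiples of the smallest value of their column, within 0.01 of a whole number, so reads were recovered by division. The members and gene lists were chosen with earlier results of these data known.

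Values were compared on the log2(value + 0.1) scale for the 14543 of 19829 genes with a mean value of at least 1, and called at 2-fold. The fixed rule named all members, *Inmt* and, in each list, the first 3 genes and the 3 largest changes, not all of which are printed, and 1 list gene is not reported here. *Psme3*, *Lgmn*, *Mrc1*, *Cd209a*, *Xcr1*, *Ccr7*, *Batf3*, *Creb1*, *Nfya*, *Nfyb*, *Nfyc*, *Fcgrt* and *Cd8a* were named after their values were seen. Ratios carry exact intervals from reads, and ratios of ratios exact conditional (Fisher) intervals. The floor was 3 reads. Scripts were tested on simulated data.

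Sharing of 100-base words and exon overlaps came from GENCODE M21, and promoters from RefSeq. *H2-K2*, a pseudogene, was placed with the other class I genes. Promoter stretches that lie inside annotated untranslated regions are not printed. Alternatives were pseudocounts of 1 and 0.01, equal column totals, a median ratio of 1 among genes valued at 100 or more in each library, TMM and DESeq2 scaling, no filter, a filter of 10, the binomial test added to the 2-fold rule, sums without the largest member, and classes without members that share over 20% of their words. Python 3.11.15, numpy 2.4.6, scipy 1.17.1, pandas 2.3.3, R 4.3.3, edgeR 4.0.16 and DESeq2 1.42.0 were used.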

Additional observations from a re-analysis of the deposited data

How the results depend on the processing

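No paired analysis was possible because each group has 1 library, and for the same reason no replicate could be left out. DESeq2 scaling, the added binomial test and a pseudocount of 1 left the counts, medians and sums of the 3 classes on the same side or within their counting error. TMM scaling could change nothing, since the deposited values already matched it. With equal column totals, 596 genes in all (4.14%) were 2-fold higher and 2086 (14.5%) lower, and 6 class I genes, 1 class II gene and 5 processing genes were 2-fold lower, while 0 class II genes were 2-fold higher. The median log2 fold change was then 0.43 for class II and −1.01 for processing, and the ratios of summed reads were 0.577 (class I), 1.33 (class II) and 0.492 (processing). With a median ratio of 1, 741 genes in all (5.12%) were 2-fold higher and 1737 (12.0%) lower, 4 class I genes were 2-fold lower and 0 class II genes higher, the medians were 0.56 (class II) and −0.88 (processing), and the ratios of sums were 0.632, 1.46 and 0.539. A pseudocount of 0.01 and the absence of a filter each gave 1 class I gene 2-fold lower, and without a filter the class II median was 0.43. A filter of 10, which leaves fewer genes, gave 557 genes higher and 657 lower in all, 1 processing gene lower, and a class I median of 0.081, above 0 instead of below it. Leaving out the member with most reads gave a ratio of 0.777 for class I and ratios of ratios of 2.06 (class II over class I) and 0.759 (processing over class I). Leaving out both *H2-K1* and *H2-D1*, added after the data were seen, gave a ratio of 0.994 for class I. At 1.5-fold, added after the data were seen, 2149 genes were higher and 2657 lower, with 1 class I gene higher and 7 lower, 4 class II genes higher and 1 lower, and 7 processing genes lower. Members sharing over 20% of their words were only *H2-Ke6*, which belongs to none of the 3 classes, so leaving it out changed none of their values. The cause of these shifts was not tested beyond the construction of each alternative.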

Other observations

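Class I-like genes outside the H2 region did not move as a group. Of the 6 with a row, 5 were tested, with a median log2 fold change of −0.56. Of those tested, 1 rose, against 6.46% of all genes, and none fell, against 9.78%. *Azgp1*, a secreted class I-like protein that binds lipids, rose from 17.9 (760 reads) to 86.9 (2878 reads), a ratio of 4.85 [4.47 to 5.26]. *Fcgrt*, the heavy chain of the neonatal Fc receptor that proximal tubules use to salvage albumin, had values of 138 and 171, a ratio of 1.24 [1.19 to 1.29]. *Hfe*, the class I-like regulator of iron uptake, had values of 42.0 and 25.7, a ratio of 0.611 [0.562 to 0.663]. *Mr1*, which presents vitamin B metabolites, had values of 8.47 and 5.71 and a ratio of 0.674, and *Cd1d1*, which presents lipids, had values of 2.22 and 1.24 and a ratio of 0.558. The product of *Fcgrt* pairs with beta-2-microglobulin, and its ratio was above 1 where that of *B2m* was below 1.

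Among genes of costimulation and adhesion, 6 had a row and 5 were tested, of which 2 fell, against 9.78% of all genes, and none rose, with a median log2 fold change of −0.64. *Icam1*, the adhesion molecule that binds leukocyte integrins, fell from 90.4 (3834 reads) to 16.0 (529 reads), a ratio of 0.177 [0.161 to 0.194]. *Cd274*, which encodes PD-L1, fell from 8.92 (378 reads) to 4.35 (144 reads), a ratio of 0.488 [0.40 to 0.592]. *Cd40* had values of 2.12 and 1.33, a ratio of 0.626, and *Cd86* had 51 and 27 reads, a ratio of 0.678 with an interval that includes 1. *Cd80* had 22 and 7 reads and was below the filter. No costimulatory gene of the list had a ratio above 1, whereas the class II chains did.

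Lymphocyte and NK cell markers rested on few reads. The 6 T cell markers with a row summed to 2.59 in WT+AKI versus 3.14 in TG+AKI, a ratio of 1.21 [0.917 to 1.6], and the 5 NK cell markers summed to 24 and 38 reads. *Cd4* had 14 and 25 reads and *Cd8a* 25 and 18 reads.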
